A study of Mus musculus with 2 samples.

Results

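The genes described here encode the machinery that moves cargo between membranes and brings granules to the cell surface. They were taken by symbol, as every gene of the deposited table whose name starts with Rab, Arl, Arf, Vps, Snx, Stx, Syt, Vamp, Exoc, Sec or Trappc followed by a digit, with Tbc1d, Arfgap, Arfgef or Stxbp, with Cop plus a, b, e, g or z and a digit, or with Ap and a number from 1 to 5 followed by b, g, m or s. This rule uses no measured value. It found 65 of the 8139 listed symbols, against 334 protein-coding genes with such names in the GENCODE mouse annotation. Thus 19.5% of the named machinery was among the symbols used here, and the other genes were not analysed. All 65 matched an annotated protein-coding gene.

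Mast cells grown from the femoral marrow of C57BL/6 mice were profiled by RNA sequencing, with 1 wild type library (WT) and 1 Tet2-/- library. Both cultures had been kept for 4 to 6 weeks with interleukin-3 at 10 ng/ml and stem cell factor at 5 ng/ml, and by the labels over 97.5% of the cells carried both c-Kit and the IgE receptor. Tet2 is a dioxygenase that converts 5-methylcytosine of DNA to oxidised forms. The labels give neither the age of the mice nor the number of mice behind a culture, and they do not describe the Tet2 allele. The question is which transcripts of these cells differ when Tet2 is missing.

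Values are RPKM, which corrects read numbers for gene length and library size, so levels of different genes can be set side by side per length. With a single library per genotype there is no replicate against which to judge a difference, so p-values are not given. Each ratio is the Tet2-/- RPKM divided by the WT RPKM, and the 95% interval beside it is an exact Clopper-Pearson interval from estimated fragment numbers. It covers counting error only, not the spread between mice or cultures. The depth behind these numbers was inferred from the steps of the RPKM values, at 31000000 fragments for WT and 31900000 for Tet2-/-. Tet2 has no row among the listed symbols, so its own RNA could not be used to check the genotype labels.

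Intracellular traffic runs through a shared cycle. Small GTPases of the Rab and Arf families mark a membrane, coats and adaptors gather cargo into a vesicle, tethers such as TRAPP and the exocyst catch that vesicle at its target, and SNARE proteins, which include the syntaxins and VAMPs, fuse the membranes under the control of Stxbp (Munc18) proteins and synaptotagmins. GTPase-activating proteins with a TBC domain switch Rabs off. In mast cells this machinery builds the secretory granules, which are related to lysosomes, and releases histamine and proteases when IgE receptors are crosslinked.

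Traffic genes stood at nearly the same level in the WT and the Tet2-/- library. Of the 65 members, 59 had a mean of at least 1 RPKM, the filter used for counts. Among them 0 were higher and 0 were lower by 2-fold or more on the log2(RPKM + 1) scale. Of all 2107 models past the filter 4.51% were beyond 2-fold, 2.9% higher and 1.61% lower in Tet2-/-. At 1.5-fold the members' count was again 0 in each direction, against 9.44% of all models, 5.84% higher and 3.61% lower. The median log2 fold of the 59 members was -0.02, beside 0.01 for all models, with 28 members above 0 and 31 below. Of all 2107 models 1096 were above 0 and 1011 below. The members' RPKM summed to 2574 in WT and 2635 in Tet2-/-.

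**Figure D1:**
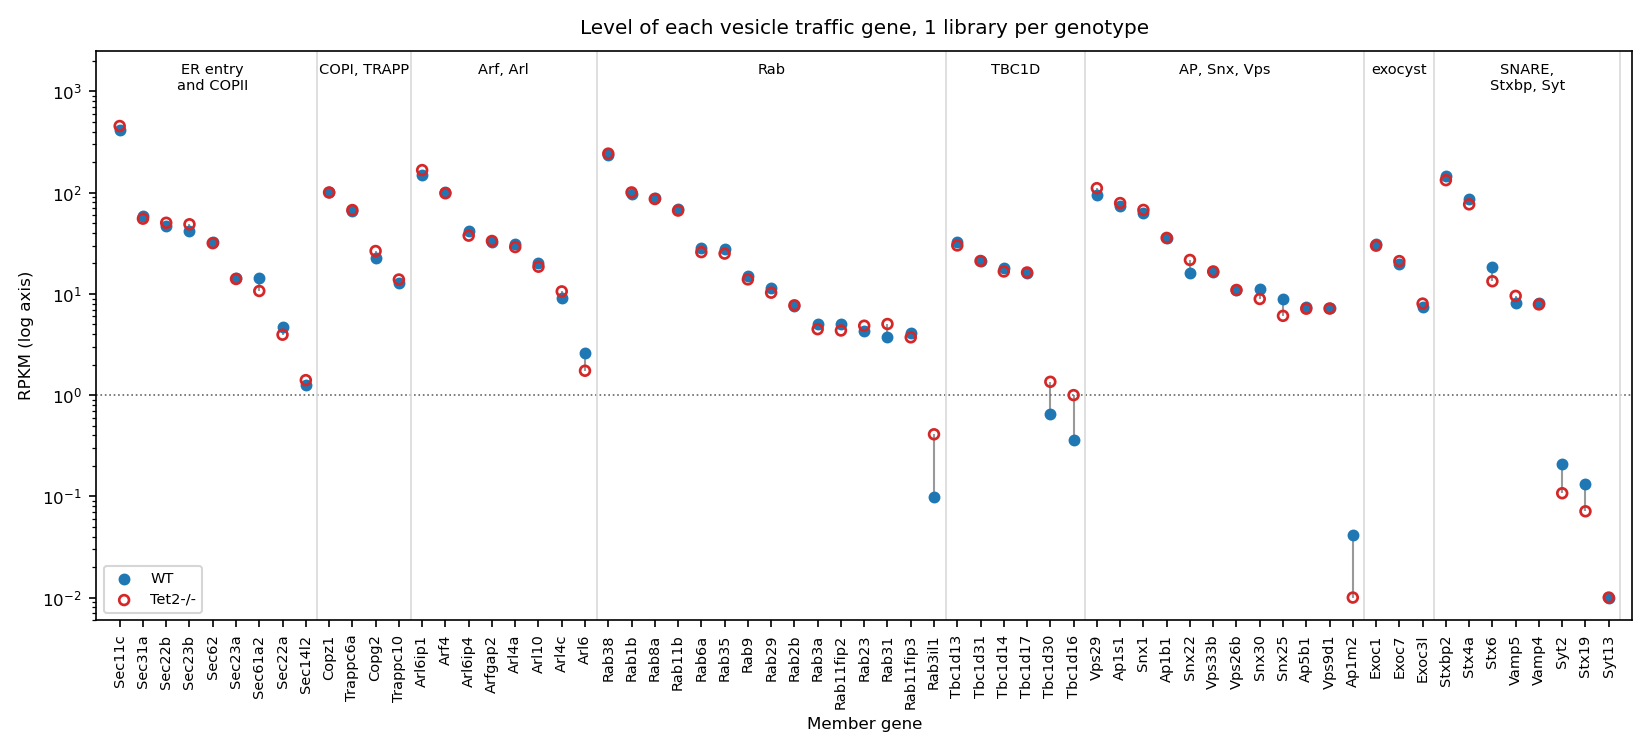
RPKM of each of the 65 members on a log axis, grouped by role and ordered by mean level within a group. Filled points are the WT library and open points the Tet2-/- library, and the dotted line marks 1 RPKM. The points nearly coincide for most members from 7 RPKM upwards, and the visible gaps lie mainly among weakly expressed genes such as Rab3il1, Tbc1d30 and Tbc1d16.

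Differences among the members were small in size, although many exceeded counting error. On the log2(RPKM + 1) scale the difference was under 1.1-fold for 39 members (66.1%) and under 1.25-fold for 52 (88.1%), while among 1772 other protein-coding genes past the filter 52.6% and 82.3% lay within those bounds. From the 10th to the 90th percentile the members' log2 folds ran from -0.18 to 0.20, and those of the other protein-coding genes from -0.26 to 0.33. The counting interval lay above a ratio of 1 for 13 members and below it for 12, or 42.4% of the 59, whereas 50.5% of the 1979 models with a fragment number had an interval without 1, 27.1% above it and 23.4% below. For 50 of the 59 members, or 84.7%, the whole interval stayed inside 1.5-fold in both directions. The share was 77.4% of the 1979 models and 81.8% of the other protein-coding genes with a fragment number. The 9 members whose interval reached 1.5-fold were Arl6, Rab31, Sec14l2, Sec22a, Sec61a2, Snx25, Stx6, Tbc1d30 and Vamp5. These calls depend on the transcript length from which fragment numbers were estimated. With the longest transcript in place of the shortest, an alternative added after seeing the data, 18 members lay above 1 and 18 below, or 61% of the 59, against 57% of all models. The 11 members whose interval then excluded 1 were Arl4a, Arl6, Rab11b, Rab11fip2, Rab1b, Rab31, Rab38, Sec22a, Sec22b, Tbc1d14 and Vamp5. After median-ratio scaling, which divides the Tet2-/- values by 1.01, 10 lay above and 13 below, with Ap1s1, Exoc7 and Rab23 no longer above 1 and Tbc1d14 below it. The shares describe 1 pair of libraries and do not set the traffic genes apart from other genes.

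**Figure D2:**
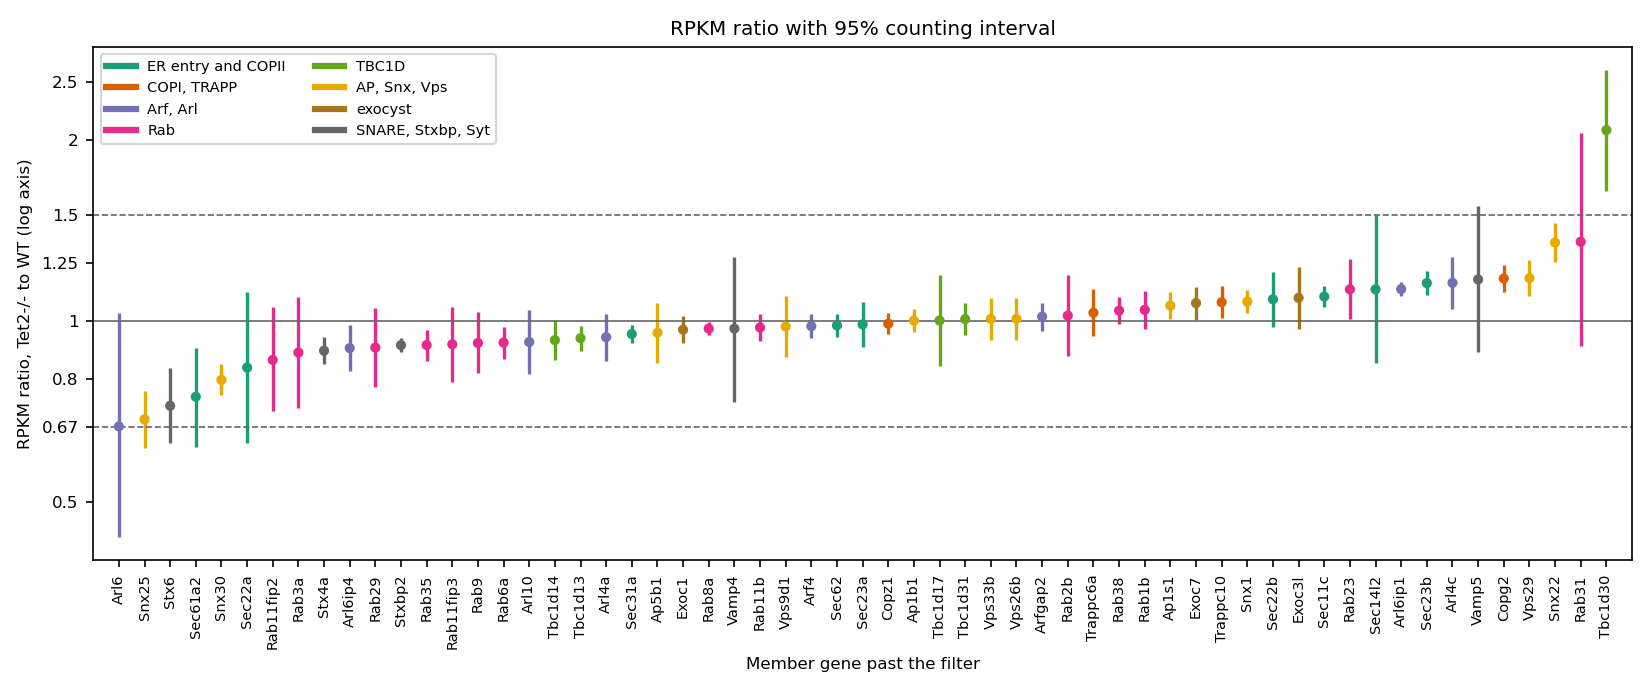
Ratio of Tet2-/- to WT RPKM on a log axis for the 59 members past the filter, ordered by ratio and coloured by role, with bars for the 95% counting interval. The solid line is a ratio of 1 and the dashed lines are 1.5-fold. Snx25, Stx6 and Sec61a2 stand low with intervals under 1, Snx22 and Tbc1d30 stand high with intervals above 1, and the other members lie closer to 1 or, like Arl6 and Rab31, have wide intervals.

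The members with the widest differences past the filter included 2 sorting nexins and a syntaxin. The promoters of Snx25, Stx6 and Snx22 are shown because these genes had the largest folds among the members past the filter with an entry in the RefSeq table (build GRCm38.p6, the assembly of mm10), and that of Syt2 because it belongs to a gene with very little RNA in either library. Each sequence is the 250 bases before the first listed start, 5′ to 3′ on the strand of the gene, and capitals mark CpG dinucleotides, the sites at which Tet2 acts on methylated cytosine. No methylation was measured.
Snx25 (chr8:46152442-46152691, minus strand): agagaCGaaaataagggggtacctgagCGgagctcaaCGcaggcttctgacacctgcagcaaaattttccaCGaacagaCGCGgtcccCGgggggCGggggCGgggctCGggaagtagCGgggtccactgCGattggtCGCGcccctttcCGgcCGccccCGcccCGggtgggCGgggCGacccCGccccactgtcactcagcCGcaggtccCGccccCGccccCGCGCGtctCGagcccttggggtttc
Stx6 (chr1:155158453-155158702, plus strand): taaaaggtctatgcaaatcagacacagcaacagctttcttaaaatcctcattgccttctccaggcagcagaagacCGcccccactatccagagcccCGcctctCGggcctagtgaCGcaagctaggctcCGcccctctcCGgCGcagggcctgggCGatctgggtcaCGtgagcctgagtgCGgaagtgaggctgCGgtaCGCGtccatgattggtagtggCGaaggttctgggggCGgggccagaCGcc
Snx22 (chr9:66069760-66070009, minus strand): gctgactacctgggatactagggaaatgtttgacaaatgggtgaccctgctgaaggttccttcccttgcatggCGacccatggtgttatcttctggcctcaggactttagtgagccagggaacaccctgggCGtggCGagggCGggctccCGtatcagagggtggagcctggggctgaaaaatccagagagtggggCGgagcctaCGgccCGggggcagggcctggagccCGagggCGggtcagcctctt
Syt2 (chr1:134646362-134646611, plus strand): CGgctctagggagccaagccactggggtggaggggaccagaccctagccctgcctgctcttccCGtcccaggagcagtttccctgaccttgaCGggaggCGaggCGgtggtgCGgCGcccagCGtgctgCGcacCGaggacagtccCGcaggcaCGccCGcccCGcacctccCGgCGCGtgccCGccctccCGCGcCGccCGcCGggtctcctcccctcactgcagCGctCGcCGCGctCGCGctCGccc
The Snx25 window holds 28 CpG, the Stx6 window 16 and the Snx22 window 10. The Syt2 window holds 30 CpG, close to that of Snx25, and the gene was nearly silent.

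Entry into the secretory route begins at the endoplasmic reticulum (ER), where the Sec61 channel admits new proteins and signal peptidase trims them. Sec11c, a catalytic subunit of signal peptidase, was the most abundant member, at 415 RPKM (WT) and 456 RPKM (Tet2-/-), giving a ratio of 1.10 (1.06 to 1.14). Sec62, an accessory protein of the channel, was at 32.3 and 31.7 RPKM. Sec61a2, an isoform of the channel's pore subunit, was at 14.3 RPKM (WT) and 10.7 RPKM (Tet2-/-), giving a ratio of 0.747 (0.616 to 0.901). Sec11c and Sec61a2 therefore differed beyond counting error in opposite directions. Sec61a2 shares 909 exon bases with Nudt5 on the opposite strand, and reads from the 2 genes cannot be told apart if the counting ignored strand, which is not stated.

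COPII coats carry proteins from the ER to the Golgi, and their genes differed by less than 1.25-fold. The inner coat gene Sec23b was at 42.2 RPKM (WT) and 48.7 RPKM (Tet2-/-), giving a ratio of 1.16 (1.10 to 1.21), while its paralog Sec23a was at 14.2 and 14.0 RPKM. Sec31a, of the outer coat, was at 58.2 and 55.4 RPKM, giving a ratio of 0.951 (0.920 to 0.983). The ER to Golgi SNARE gene Sec22b was at 46.4 and 50.4 RPKM, and its weaker relative Sec22a at 4.73 and 3.95 RPKM, both with intervals spanning 1. With the longest transcript that of Sec22b lay above 1 and that of Sec22a below it. Sec14l2, a lipid-binding protein gene that shares only the prefix with the coat genes, was at 1.25 and 1.41 RPKM. Across the 9 Sec members the median log2 fold was -0.02.

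The COPI coat, which returns material from the Golgi to the ER, was represented by Copz1 and Copg2. Copz1 (zeta subunit) was at 102 RPKM (WT) and 100.5 RPKM (Tet2-/-), and Copg2 (gamma subunit) at 22.5 and 26.5 RPKM, giving a ratio of 1.18 (1.12 to 1.24). Copg2 shares exon bases with the oppositely transcribed Mest, whose values were 0.280 and 0.335 RPKM. Arfgap2, which switches off Arf on COPI vesicles, was at 32.8 and 33.3 RPKM. Of the TRAPP tether, Trappc6a was at 65.3 and 67.3 RPKM and Trappc10 at 12.9 and 13.9 RPKM. In these 5 genes the Tet2-/- value was at most 1.18 times the WT value.

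Arf and Arl proteins recruit coats and effectors to membranes. Arf4, a Golgi GTPase, was at 101 RPKM (WT) and 98.6 RPKM (Tet2-/-). Arl6ip1, an ER-shaping membrane protein, was at 148 and 167 RPKM, giving a ratio of 1.13 (1.10 to 1.16), from an estimated 9179 and 10614 fragments. Arl4c, a plasma membrane GTPase, was at 9.15 and 10.6 RPKM, giving a ratio of 1.16 (1.05 to 1.28), whereas its relative Arl4a was at 30.9 and 29.0 RPKM with an interval spanning 1. Arl6ip1 and Arl4c were thus the 2 members of this group with intervals above 1. Arl6ip4, a nuclear protein gene linked to splicing, was at 41.8 and 37.6 RPKM, the single interval below 1 in the group, and Arl10 was at 20.1 and 18.6 RPKM. Arl6, a GTPase of ciliary traffic, had the lowest ratio past the filter, 0.667, from 2.61 and 1.74 RPKM, but it rested on an estimated 57 and 39 fragments and its interval, 0.437 to 1.03, included 1. With the longest transcript the intervals of Arl4a and Arl6 lay below 1. The median log2 fold of the 7 Arf and Arl genes and partners was -0.09.

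Rab GTPases stood close to equal in the libraries. All 12 were past the filter, their median log2 fold was -0.04, and their summed RPKM was 590 in WT and 594 in Tet2-/-. Rab38, which directs cargo to lysosome-related organelles such as melanosomes, was the most abundant, at 234 RPKM (WT) and 243 RPKM (Tet2-/-), giving a ratio of 1.04 with an interval of 0.989 to 1.09. It lies on chromosome 7 at 88430273 to 88491572 (mm10, plus strand). Rab1b, of ER to Golgi transport, was at 96.4 and 101 RPKM and also had an interval spanning 1. With the longest transcript the intervals of Rab38 and Rab1b lay above 1. Rab8a, which carries vesicles to the plasma membrane, was at 89.3 and 86.6 RPKM, giving a ratio of 0.971 whose interval, 0.946 to 0.995, barely excluded 1 at an estimated 12119 and 12077 fragments. Rab38 stood well above the other Rab genes in each library, and the order of the 4 most abundant, Rab38, Rab1b, Rab8a and Rab11b, was the same in both.

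Rab genes of the Golgi and of recycling followed at lower levels. Rab11b, of recycling endosomes, was at 68.3 and 66.6 RPKM. Rab6a, of the Golgi, was at 28.1 and 25.9 RPKM, giving a ratio of 0.920 (0.865 to 0.978), and Rab35, of endocytic recycling, at 27.5 and 25.02 RPKM, giving a ratio of 0.911 (0.858 to 0.967). Rab6a, Rab35 and Rab8a were the 3 Rab genes with an interval below 1, all within 1.1-fold. With the longest transcript the Rab11b interval also lay below 1. Rab9, which serves traffic from late endosomes to the Golgi, was at 15.1 and 13.9 RPKM, Rab29 at 11.4 and 10.3 RPKM, and Rab2b at 7.56 and 7.71 RPKM. Rab11b, Rab6a and Rab9, and also Arfgap2, have a processed pseudogene that matches at least 200 bases of their transcript at 95% identity or more, so some of their reads may come from, or have gone to, the copy.

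The weakest Rab genes were Rab3a, Rab23 and Rab31. Rab3a, a GTPase of regulated exocytosis, was at 5.06 RPKM (WT) and 4.48 RPKM (Tet2-/-), with an interval of 0.715 to 1.10. Rab23, a ciliary regulator of Hedgehog signalling, was at 4.30 and 4.85 RPKM, the single Rab gene with an interval above 1, which included 1 after median-ratio scaling. Rab31, which acts between the Golgi and endosomes, had the highest ratio of the family, 1.35, from 3.72 and 5.04 RPKM. Its interval of 0.907 to 2.06 included 1. The Rab11 effector genes Rab11fip2, at 5.05 and 4.35 RPKM, and Rab11fip3, at 4.07 and 3.72 RPKM, did not separate from 1 either. With the longest transcript the Rab31 interval lay above 1 and that of Rab11fip2 below it.

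Among members whose interval excluded 1, the widest ratios were found in 3 Rab regulators with little RNA. Tbc1d30, a GTPase-activating protein gene for Rab8, was at 0.652 RPKM (WT) and 1.35 RPKM (Tet2-/-), giving a ratio of 2.08 (1.65 to 2.61) from an estimated 112 and 238 fragments. Tbc1d16, which encodes a GTPase-activating protein for Rab4, was at 0.358 and 1.00 RPKM, giving a ratio of 2.79 (1.80 to 4.34) on 30 and 85 fragments. Rab3il1, an exchange factor gene that activates Rab8, was at 0.0984 and 0.410 RPKM, giving a ratio of 4.17 (1.56 to 11.7) on 6 and 24 fragments. All 3 were higher in the Tet2-/- library beyond counting error, but on the log2(RPKM + 1) scale, which understates low genes, they came to 0.51, 0.56 and 0.36. Tbc1d30 passed the filter only through its Tet2-/- value, and the other two did not pass it. Tbc1d30 and Tbc1d16 overlap exons of unlisted noncoding RNA genes on the opposite strand.

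Most listed markers of other myeloid cells were higher in the same library. The 6 listed macrophage and monocyte markers, of 12 on that list, summed to 2.02 RPKM (WT) and 31.6 RPKM (Tet2-/-), and all 6 had an interval above 1. The 3 listed of 8 neutrophil markers summed to 1.12 and 10.1 RPKM, with Csf3r at the value 0.01 in both libraries and Mpo at 0.01 in WT. Most of that sum was Ly6g, at 1.10 and 9.61 RPKM, for which no interval was made. For eosinophils, 2 of 5 markers were listed and summed to 0.829 and 2.27 RPKM. Ear2 was at 0.117 and 1.45 RPKM, while Il5ra was at 0.712 and 0.820 RPKM with an interval of 0.710 to 1.87. The listed basophil marker Mcpt8 was at 56.1 and 163 RPKM. The 3 listed of 15 mast cell markers summed to 2937 and 2923 RPKM, but they moved in different directions. Gzmb, a granule protease, had a ratio of 1.13 (1.12 to 1.14). Fcer1g, the IgE receptor's gamma chain, had one of 0.736 (0.714 to 0.760), and Slc18a2, a monoamine transporter, one of 0.859 (0.849 to 0.869). The markers Kit, Fcer1a and Ms4a2 were not analysed here. Of 5 lymphocyte markers Cd79a was listed, at 0.0250 and 0.147 RPKM, and of 4 erythroid markers none was. The part of other myeloid cells in the values of Tbc1d30, Tbc1d16, Rab3il1 and Rab31 was not tested, and in a bulk library the number of cells of a type and the RNA per cell cannot be told apart.

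The other TBC1D genes hardly differed between the libraries. Tbc1d13, whose product acts on Rab35, was at 32.2 RPKM (WT) and 30.1 RPKM (Tet2-/-), giving a ratio of 0.936 (0.892 to 0.982). Tbc1d31, a centriolar satellite protein gene, was at 21.0 and 21.1 RPKM, Tbc1d14, which takes part in autophagy, at 17.9 and 16.7 RPKM, and Tbc1d17 at 16.3 RPKM in both. Of these 4 intervals that of Tbc1d13 excluded 1, and that of Tbc1d14 (0.861 to 1.00) did so after median-ratio scaling or with the longest transcript. Tbc1d17 shares 3423 exon bases with Il4i1 on the opposite strand, Rab6a shares 708 with Mrpl48 and Arfgap2 shares 1380 with 1110051M20Rik, and none of these partners was analysed here.

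Sorting nexins bind phosphoinositides on endosomes, and in this family all 4 members had an interval without 1, 2 above it and 2 below, where 50.5% of all models had one. Snx25 (chromosome 8, 46033261 to 46152159, minus strand) was at 8.86 RPKM (WT) and 6.07 RPKM (Tet2-/-), giving a ratio of 0.685 (0.614 to 0.764) and a log2 fold of -0.48, the most negative of any member past the filter. Snx30 was at 11.2 and 8.91 RPKM, giving a ratio of 0.797 (0.752 to 0.846). Snx22 (chromosome 9, 66065176 to 66069719, minus strand) was at 16.0 and 21.6 RPKM, giving a ratio of 1.35 (1.25 to 1.46). Snx1, which works with retromer in endosome to Golgi transport, was at 62.7 and 67.5 RPKM. Snx25 and Snx30 thus stood lower in Tet2-/- and Snx22 and Snx1 higher. Snx22 shares 825 exon bases with Ppib on the opposite strand, and Ppib, a cyclophilin gene of the ER, was at 306 and 331 RPKM. The part of Ppib reads in the Snx22 value was not tested. Snx25 shares 132 exon bases with Cfap97, which was not analysed, and no opposite-strand exon overlaps Snx30.

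Retromer, the coat that retrieves receptors from endosomes, was represented by 2 subunits. Vps29 was at 94.0 RPKM (WT) and 111 RPKM (Tet2-/-), giving a ratio of 1.18 (1.10 to 1.26), while Vps26b was at 10.9 RPKM in both. Vps33b, which takes part in granule formation in platelets, was at 16.5 and 16.7 RPKM, and Vps9d1, which carries a domain found in Rab5 exchange factors, at 7.33 and 7.17 RPKM. Among these 4 only Vps29 had an interval without 1, and it shares 340 exon bases with Fam216a on the opposite strand.

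Adaptor complexes, which select cargo for vesicles, showed little difference past the filter. For AP-1, which works between the Golgi and endosomes, Ap1s1 (sigma subunit) was at 74.4 and 78.9 RPKM, giving a ratio of 1.06 (1.01 to 1.12) whose interval included 1 after median-ratio scaling, and Ap1b1 (beta subunit) at 35.7 RPKM in each library. Ap1m2, the epithelial mu subunit, was at 0.0411 RPKM in WT and listed at 0.01 in Tet2-/-, with an estimated 2 fragments in WT. The AP-5 gene Ap5b1 was at 7.47 and 7.14 RPKM. The epithelial form was therefore at the limit of detection while the widely expressed AP-1 subunits were well covered.

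The exocyst tethers secretory vesicles to the plasma membrane. Exoc1 was at 31.0 RPKM (WT) and 30.0 RPKM (Tet2-/-) and Exoc7 at 19.7 and 21.1 RPKM. Exoc3l, an Exoc3-like gene, was at 7.34 and 8.02 RPKM. The Exoc7 interval lay just above 1 and the other 2 included it. After median-ratio scaling that of Exoc7 included 1 as well.

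Of the genes that act in membrane fusion, Stxbp2, Stx4a and Stx6 stood lower in Tet2-/- beyond counting error. Stxbp2 encodes Munc18-2, a syntaxin-binding protein needed for mast cell degranulation, and was at 146 RPKM (WT) and 133 RPKM (Tet2-/-), giving a ratio of 0.911 (0.888 to 0.935) from an estimated 12380 and 11564 fragments. Stx4a, a syntaxin of the plasma membrane that takes part in granule release, was at 86.0 and 76.7 RPKM, giving a ratio of 0.892 (0.847 to 0.939). Stx6, a syntaxin of the Golgi and endosomes (chromosome 1, 155158715 to 155208256, plus strand), was at 18.5 and 13.3 RPKM, giving a ratio of 0.722 (0.626 to 0.836) and a log2 fold of -0.44. Of the 3, only Stx6 differed by more than 1.25-fold. No annotated exon on the opposite strand overlaps Stx6 or Stxbp2.

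Both listed VAMP genes had intervals that included 1. Vamp4, a SNARE of the Golgi, was at 8.11 RPKM (WT) and 7.87 RPKM (Tet2-/-), and Vamp5 at 8.15 and 9.55 RPKM, with intervals of 0.732 to 1.28 and 0.887 to 1.55. With the longest transcript the Vamp5 interval lay above 1. The 2 listed synaptotagmins, Syt2 and Syt13, were at or near 0. Syt2, described in rodent mast cells as a regulator of lysosomal exocytosis, was at 0.209 and 0.107 RPKM from an estimated 21 and 11 fragments, with an interval of 0.222 to 1.11, and Syt13 was listed at 0.01 in both libraries. Stx19, an epithelial syntaxin, was at 0.134 and 0.0712 RPKM on 11 and 6 fragments. With the shortest transcript the intervals of Syt2 and Stx19 included 1, and none could be made for Syt13. Intervals with the longest transcript were not made for genes under the filter, so whether these would exclude 1 was not tested.

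A list of 49 genes known from mast cell or lysosome-related secretion had 10 listed members, namely Rab3a, Rab11b, Rab38, Stx4a, Stx6, Stxbp2, Vamp4, Syt2, Exoc7 and Vps33b. Of these, 9 were past the filter and 0 reached 1.5-fold, against 9.44% of all models. In Tet2-/- 6 were lower and 3 higher, where 1011 of all 2107 models were lower and 1096 higher. The median log2 fold was -0.04, beside 0.01 for all models. The interval lay below 1 for Stxbp2, Stx4a and Stx6 and above 1 for Exoc7, or 44.4% of the 9, against 50.5% of all models, and that of Exoc7 included 1 after median-ratio scaling.

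**Figure D3:**
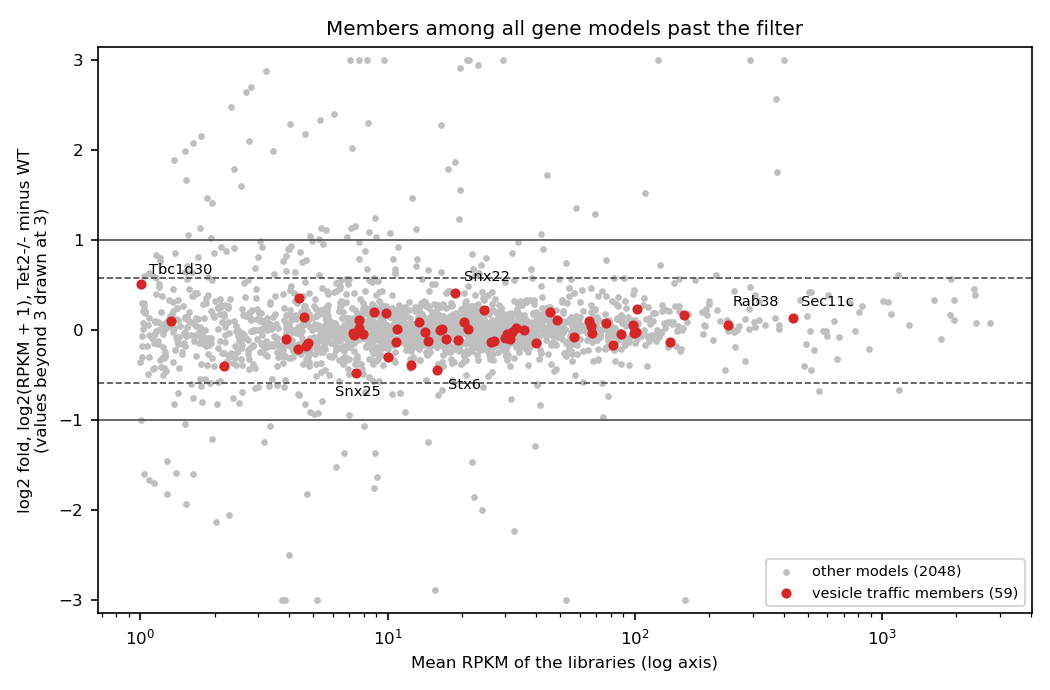
Log2 fold on the log2(RPKM + 1) scale (Tet2-/- minus WT) against mean RPKM on a log axis for the 2107 models past the filter, with the 59 members in red and values beyond 3 drawn at 3. Solid lines mark 2-fold and dashed lines 1.5-fold. Every member past the filter lies between the dashed lines, from Snx25 at -0.48 to Tbc1d30 at 0.51.

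Traffic genes outside the naming rule were read from a second list. It held 138 further genes (SNARE partners, exocytosis factors, Rab regulators, coats, lysosome-related organelle genes and tethers), of which 24 were listed and 23 were past the filter. Against 9.44% of all models beyond 1.5-fold, none of these was higher and 1 was lower, Dnm3, a dynamin that pinches off vesicles, at 29.7 RPKM (WT) and 18.9 RPKM (Tet2-/-), giving a ratio of 0.635 (0.576 to 0.700). The median log2 fold of the list was 0.04, and the interval lay above 1 for 8 and below 1 for 5 of the 22 with a fragment number, or 59.1% without 1, against 50.5% of all models and 42.4% of the members.

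Among SNARE partners, Snap29 was at 35.1 RPKM (WT) and 43.2 RPKM (Tet2-/-), giving a ratio of 1.23 (1.18 to 1.29), and Ykt6, an ER to Golgi SNARE, at 42.2 and 48.0 RPKM. Napa, the alpha-SNAP that recycles SNARE complexes, was at 66.6 and 56.8 RPKM, giving a ratio of 0.853 (0.818 to 0.889). Of the Rab regulators, Rabac1, a Golgi membrane protein that binds prenylated Rabs, was at 95.5 and 123 RPKM, giving a ratio of 1.29 (1.22 to 1.36), and Rabgef1, an exchange factor for Rab5, at 14.5 and 16.6 RPKM. The coat genes Cope, at 109 RPKM in both, and Acap1, an Arf6 GTPase-activating protein gene at 105 and 95.7 RPKM, were the most abundant of their group, and the COPII GTPase gene Sar1b was at 38.5 and 46.0 RPKM, giving a ratio of 1.19 (1.11 to 1.29). Sar1b and Sec23b, which act together in COPII, both had intervals above 1, while Sec31a of the same coat had one below. Cadps2, a priming factor for granule release, was under the filter at 0.560 and 0.114 RPKM, giving a ratio of 0.203 (0.0986 to 0.380).

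The members' promoters were compared by CpG content, which the naming rule did not use. A promoter entry was found for 55 members and none for the other 10, and 15 of the 55 have more than 1 listed start, of which the first was taken. In the 250 bases before the start the members held a median of 17 CpG, from 3 to 39, the same median as 1430 protein-coding genes past the filter, whereas all 27025 promoters of the table had a median of 6. Over the 51 members past the filter, CpG count and log2 fold had a Pearson's r of -0.15 and a Spearman's rho of -0.17, given as a description of genes that share 1 pair of libraries. The low fold of Snx25 fell at 28 CpG and the high fold of Snx22 at 10, as the sequences above show, but Snx30, also low, had 10.

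The E-box CACGTG, a palindrome that Mitf and the lysosomal regulator Tfeb can bind, was present in 9 of the 55 windows (16.4%), against 6.05% of all promoters. For members past the filter it was 8 of 51 (15.7%), against 9.58% of the promoters of protein-coding genes past the filter, members included. The 9 genes were Rab23, Rab3il1, Sec62, Stx6, Stxbp2, Tbc1d13, Tbc1d14, Trappc10 and Vamp4. In Stx6 the motif begins 85 bases before the start and in Stxbp2 14 bases before it. The 8 of these genes past the filter had a median log2 fold of -0.07 and ranged from -0.44 to 0.14. The related hexamer CATGTG, searched on both strands, was found in 1 of the windows (1.82%). That is 1.96% of the members past the filter, against 7.90% of the protein-coding genes past the filter. The hexamer AGATAA, part of the site of haematopoietic Gata factors, was found on either strand in 2 of the windows (3.64%). That is 3.92% of the members past the filter, against 5.52% of the protein-coding genes past the filter. A match is a run of letters and not evidence of binding.

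**Figure D4:**
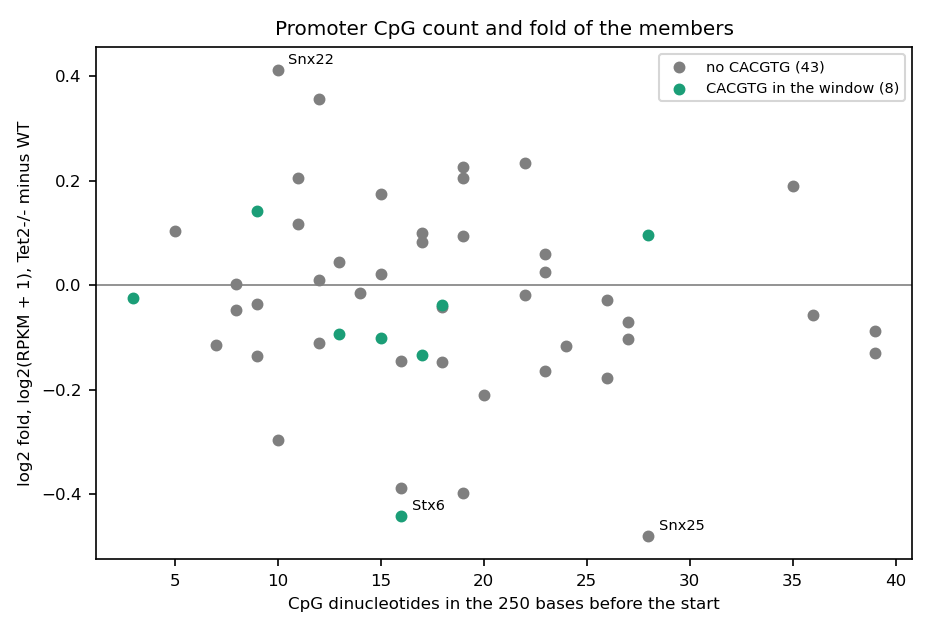
Log2 fold on the log2(RPKM + 1) scale (Tet2-/- minus WT) against the number of CpG dinucleotides in the 250 bases before the start, for the 51 members past the filter with a promoter entry. Green points are the 8 genes with CACGTG in the window. Of the points, Snx22 lies highest, at 10 CpG, and Snx25 lowest, at 28.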

How the data were processed

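Libraries of 1 WT and 1 Tet2-/- mast cell culture were compared, grouped by the genotype label. The deposited values are RPKM, per the file headers, on build mm10 by the submitters' processing notes. Aligner, counting program and annotation: not given in the sources used here. The authors' RPKM depends on total reads, so a few very abundant genes can lower all others. The value 0.01 fills 58.1% of WT and 57.4% of Tet2-/- models and was read as no reads, although 67 and 80 models lie below it.

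Depth was inferred from low values of single-transcript genes. RPKM times length, less 170 bases in WT and 180 in Tet2-/-, came within 0.1 of whole fragments in 96.0% of 427 and 448 genes at 31000000 and 31900000 fragments. These settings were chosen for the highest such share, so the 20% that chance gives at a fixed setting does not test them. Fragment numbers used the shortest basic protein-coding transcript of GENCODE release 21 (8007 of 8139 symbols matched), which widens intervals, and none was made under 400 bases.

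Counts were made over genes averaging 1 RPKM or more, at a fold of 2 or 1.5 on the log2(RPKM + 1) scale. No test across samples was possible. Named genes were those past 1.5-fold, the 3 most abundant of each family and the secretion list, and other members were added. Members, lists and motifs were chosen with earlier results of these data known. Calls and intervals were also run on simulated Poisson counts. The intervals there used the true transcript lengths and depths, so that run could not show error from either. Exons of 22 members overlap a gene on the opposite strand, and the strandedness of the kit is not given. Copies were sought with BLAST 2.17.0. Alternatives were other pseudocounts, filters and a median-ratio scaling. The work used Python 3.11.15 with numpy 2.4.6, scipy 1.17.1, pandas 2.3.3 and, for plots, matplotlib 3.10.9.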

Additional observations from a re-analysis of the deposited data

How the results depend on the processing

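The counts of 0 members beyond 2-fold in either direction held under pseudocounts of 0.1 and 5 RPKM, no filter, a filter at 5 RPKM and median-ratio scaling, as did the 0 lower by 1.5-fold. Each setting was changed alone, so a pseudocount of 0.1 was not combined with no filter. At that pseudocount Rab3il1 and Tbc1d16 were higher by more than 2-fold, but both are under the filter and were not counted. With a pseudocount of 0.1, 1 member was higher by 1.5-fold, Tbc1d30. The count of 1 further traffic gene lower by 1.5-fold, Dnm3, became 0 with a pseudocount of 5. The change for Tbc1d30, at 0.652 RPKM (WT) and 1.35 RPKM (Tet2-/-), follows from how a pseudocount weights low values. Dnm3 is not low, at 29.7 RPKM (WT) and 18.9 RPKM (Tet2-/-). Its log2 fold went from -0.63 to -0.54 and so passed just under the 1.5-fold bound of 0.58 in size. The other 48 alternative counts equalled the main count or stayed within 1.5 times of it. All 50 alternative medians stayed between the median lower and median upper bound of the single genes' intervals. That range is not an error of the median, so it is a loose check. Some family medians near 0 changed sign. That of the TBC1D genes went from 0.0017 to -0.0076 with scaling and to -0.046 with a filter at 5 RPKM. For the AP adaptors it went from 0.0013 to -0.0082 with scaling and to -0.021 with no filter. Of 195 alternative log2 folds of the 65 members 184 counted as unchanged and 11, of 8 members, moved, all with another pseudocount. Unchanged means inside the counting interval or, for Syt13, which has no interval, less than 0.1 from the main log2 fold. The 8 were Ap1m2, Rab3il1, Snx25, Snx30, Stx19, Syt2, Tbc1d16 and Tbc1d30. At 0.1 and 5 RPKM the folds were 1.36 and 0.09 for Rab3il1, 1.26 and 0.16 for Tbc1d16, and 0.95 and 0.17 for Tbc1d30. Of 72 values of the 24 further traffic genes 2 moved, both of Cadps2. The counting intervals with the longest transcript (18 members above 1 and 18 below) and with scaling (10 and 13), and the counts by sign, were added after seeing the data. No paired analysis was possible because there is a single library per genotype, so none could be left out either. A member near 0.1 RPKM rests on few fragments.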
